A study of Mus musculus with 15 samples.

Results

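Hmgcs1, Idi1, Fdft1, Sqle and Cyp51 encode enzymes of cholesterol synthesis, and Insig1 encodes a membrane protein that holds that synthesis back. These 6 genes were followed on Affymetrix mouse arrays in 4 groups: brain-derived cells sorted by FACS as SMC/pericyte from Notch3 -/- mice (5 arrays) and from Notch3 +/- mice (4 arrays), and aorta explants of Notch3 -/- (3 arrays) and Notch3 +/- (3 arrays). All mice were C57BL6J males of 10 to 12 weeks. The heterozygotes served as controls and no wild-type array was analysed here, so every genotype comparison is between no intact copy and 1 intact copy of Notch3, a receptor of vascular smooth muscle cells and pericytes. The members were all probe sets annotated to these 6 symbols, 16 of 45101 on the array: 5 for Hmgcs1, 4 for Fdft1, 3 for Cyp51, 2 for Idi1 and 1 each for Sqle and Insig1. No receptor for sterol uptake is among the 6 genes, and genes of sterol uptake were read from a separate list. The brain arrays came from 1 mouse each by the design text. Nothing in the labels says so for aorta, where p-values measure only the spread between those arrays. How many arrays each group holds is what bounds the precision.

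Cholesterol is built from acetyl-CoA through mevalonate, isoprenoid units, squalene and lanosterol. The genes of this route are switched on together by SREBP2, a transcription factor held in the endoplasmic reticulum by SCAP and INSIG proteins while sterols are plentiful, and freed when sterols run low. In brain most cholesterol is made locally, by astrocytes and above all by oligodendrocytes that build myelin, whereas cells of the vessel wall outside the brain can also take cholesterol up from lipoproteins. Insig1 is itself a target of SREBP2, so its transcript can respond to the same signal as those of the enzymes.

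The stretches before the start sites of the genes are printed because these genes are textbook cases of shared control. RefSeq windows of GRCm38.p6 were at hand for 4 of the 6 genes, Hmgcs1, Idi1, Insig1 and Cyp51. Each covers the 250 bases before the annotated start, read 5′ to 3′ on the gene's strand, with letters in capitals where a motif matched. The motifs searched on both strands were a sterol regulatory element, TCACNCCAC, and the CCAAT box, CCAAT, which do not overlap here.
Hmgcs1 window, chr13:119690101-119690350, plus strand: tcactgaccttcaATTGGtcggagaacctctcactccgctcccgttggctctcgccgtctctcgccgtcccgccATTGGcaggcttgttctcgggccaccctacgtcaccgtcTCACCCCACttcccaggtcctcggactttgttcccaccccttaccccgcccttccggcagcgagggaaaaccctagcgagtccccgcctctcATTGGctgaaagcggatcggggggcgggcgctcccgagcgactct
Idi1 window, chr13:8885356-8885605, plus strand: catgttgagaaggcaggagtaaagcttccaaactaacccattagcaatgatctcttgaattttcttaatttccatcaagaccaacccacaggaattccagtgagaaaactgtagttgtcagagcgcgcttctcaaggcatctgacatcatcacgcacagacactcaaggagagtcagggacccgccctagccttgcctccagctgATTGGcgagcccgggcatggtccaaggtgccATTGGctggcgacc
Insig1 window, chr5:28071162-28071411, plus strand: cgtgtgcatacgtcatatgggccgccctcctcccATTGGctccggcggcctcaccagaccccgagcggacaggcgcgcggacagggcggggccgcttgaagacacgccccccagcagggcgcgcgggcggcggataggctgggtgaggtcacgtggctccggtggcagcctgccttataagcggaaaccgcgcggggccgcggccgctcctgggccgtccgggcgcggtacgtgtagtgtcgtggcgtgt
Cyp51 window, chr5:4104698-4104947, minus strand: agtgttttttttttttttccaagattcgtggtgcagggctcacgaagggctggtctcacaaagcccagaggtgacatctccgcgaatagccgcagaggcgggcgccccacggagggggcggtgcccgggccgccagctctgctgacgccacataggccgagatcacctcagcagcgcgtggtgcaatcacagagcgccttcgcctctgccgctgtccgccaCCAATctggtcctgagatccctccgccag
The Hmgcs1 window held 1 match to the sterol regulatory element, starting 137 bases before the start site, a motif found in 1.05% of all 32851 windows of this length. No match to these letters was in the windows of the other 3 genes. Other forms of the element were not searched for, so the lack of a match does not show that a window lacks one. The CCAAT box, found in 33.8% of all windows, matched 3 times for Hmgcs1, 2 times for Idi1 and 1 time each for Insig1 and Cyp51. A match is a description of the letters, not a mapped binding site.

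The labels and the sort were checked first. Notch3 at its brighter probe set averaged 210.0 ± 37.0 in Notch3 -/- brain cells (SD, n = 5) and 2616 ± 222 in Notch3 +/- brain cells (n = 4), and passed (log2 -3.56, limma adjusted p = 4.31e-08). In aorta it read 80.1, 97.9 and 146 in Notch3 -/- and 453, 387 and 362 in Notch3 +/-, with no overlap, but did not pass (log2 -1.78, adjusted p = 0.135) except without Notch3 -/- replicate 6167 (adjusted p = 0.0168) or in 1 fit over all 15 arrays (0.000868). Values are linear intensities, set by the authors to a common target of 150. Of 10 mural markers, 9 averaged 50 or more in both brain groups, but so did all 7 measured endothelial markers, all 6 astrocyte markers and 6 of 7 measured oligodendrocyte markers. The summed intensity of the oligodendrocyte markers ranged over 37428 to 48156 in Notch3 -/- brain and 30904 to 47315 in Notch3 +/- brain, against 362 to 446 in Notch3 -/- aorta and 343 to 693 in Notch3 +/- aorta. That of the astrocyte markers was 18660.0 to 29958 in Notch3 -/- brain and 11858 to 32799 in Notch3 +/- brain, against 2139 to 2593 in Notch3 -/- aorta and 1886 to 3158 in Notch3 +/- aorta. In aorta, Gfap, Aqp4 and Slc1a2 of the astrocyte markers and Mog, Mag, Mobp, Ugt8a and Cldn11 of the oligodendrocyte markers averaged under 50 in both genotypes. The brain preparation thus carried RNA of the cell types that make most brain cholesterol, and their part in the levels below was not tested. Summed endothelial markers were also higher, and summed fibroblast markers lower, in every brain array than in any aorta array. In such bulk samples fewer cells of a type and less RNA per cell cannot be told apart.

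Hmgcs1, the cytosolic HMG-CoA synthase that makes the precursor of mevalonate, was higher in the brain preparation at its brightest probe set, 1433443_a_at. It read 5675, 8252, 6607, 6722 and 7719 in Notch3 -/- brain cells and 5636, 6178, 6165 and 9479 in Notch3 +/- brain cells, against 2011, 1781 and 3556 in Notch3 -/- aorta and 2503, 2368 and 2071 in Notch3 +/- aorta. Every brain array lay above every aorta array, while the genotypes overlapped within each tissue. Brain exceeded aorta 2.96-fold in Notch3 -/- (log2 1.56, SE 0.20, limma adjusted p = 1.35e-05) and 2.90-fold in Notch3 +/- (log2 1.54, SE 0.20, adjusted p = 8.51e-05). Fold changes are on the log2(value + 16) scale, which understates those of dim probe sets, and p-values were adjusted by Benjamini-Hochberg over all 22519 probe sets tested.

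The other bright probe sets of Hmgcs1 ran the opposite way. 1433445_x_at read 202, 247, 371, 285 and 369 in Notch3 -/- brain and 434, 435, 286 and 181 in Notch3 +/- brain, against 779, 658 and 1298 in Notch3 -/- aorta and 908, 867 and 765 in Notch3 +/- aorta. 1433444_at read 128, 163, 292, 202 and 301 in Notch3 -/- brain and 281, 276, 259 and 158 in Notch3 +/- brain, against 709, 529 and 1079 in Notch3 -/- aorta and 792, 729.9 and 653 in Notch3 +/- aorta. 1433446_at averaged 70.8 ± 22.1 (n = 5) and 81.6 ± 11.7 (n = 4) in brain and 279 ± 57.0 and 270.1 ± 28.9 (n = 3 each) in aorta, Notch3 -/- first. At each of the 3 probe sets all brain arrays lay below all aorta arrays of the same genotype. Brain minus aorta was -1.55, -1.77 and -1.78 in Notch3 -/- and -1.38, -1.54 and -1.55 in Notch3 +/- on the log2 scale, with limma adjusted p of at most 7.32e-05 and 0.00147. The sources at hand do not name the stretch of transcript that each probe set reads, so these values do not settle whether Hmgcs1 as a whole was higher or lower in the brain preparation; the cause of the split was not tested. The suffix _a marks a set that reads several transcripts of 1 gene and _x a set with probes that may read other genes. The fifth probe set, 1441536_at, was dim (18.8 to 55.6 in Notch3 -/- brain, 19.7 to 38.8 in Notch3 +/- brain, 15.0 to 24.5 in Notch3 -/- aorta and 8.51 to 24.4 in Notch3 +/- aorta) and was not tested.

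Idi1 and Fdft1 also had probe sets with opposite signs, though not every difference passed. Idi1, the isomerase that makes the reactive isoprenoid unit, read 423, 595, 604, 714 and 595 at 1423804_a_at in Notch3 -/- brain and 571, 544, 446 and 405 in Notch3 +/- brain, against 298, 279 and 718 in Notch3 -/- aorta and 399, 436 and 331 in Notch3 +/- aorta. The groups overlapped, with Notch3 -/- aorta replicate 6167 above every brain array, and the difference between tissues did not pass (log2 0.54, adjusted p = 0.0846 in Notch3 -/-, and 0.32, 0.154 in Notch3 +/-, by limma). Without replicate 6167 it passed in Notch3 -/- at log2 0.96 (adjusted p = 0.000878), and without brain replicate A at 0.65 (adjusted p = 0.0465). With array weights it passed in both genotypes, at 0.68 in Notch3 -/- (adjusted p = 0.0308) and 0.42 in Notch3 +/- (adjusted p = 0.0381). At 1451122_at, Idi1 read 184, 234, 286, 367 and 248 in Notch3 -/- brain and 309.5, 269.7, 211 and 208 in Notch3 +/- brain, against 358, 264 and 753 in Notch3 -/- aorta and 436, 501 and 391 in Notch3 +/- aorta. Here brain minus aorta was -0.80 in Notch3 +/- (adjusted p = 0.00421, no overlap), and in Notch3 -/- the difference of -0.66 did not pass (adjusted p = 0.0545; without brain replicate D it was -0.78, adjusted p = 0.0292, and without aorta replicate 5559 -0.97, adjusted p = 0.0105). It also passed in 1 fit over all 15 arrays (adjusted p = 0.0352).

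Fdft1, squalene synthase, which commits isoprenoids to sterols, was brightest at 1438322_x_at, with 726, 1050.0, 1104, 1457 and 1353 in Notch3 -/- brain and 777, 939.9, 782 and 1081 in Notch3 +/- brain, against 559, 465 and 842 in Notch3 -/- aorta and 615, 704 and 667 in Notch3 +/- aorta. Every brain array exceeded 5 of the 6 aorta arrays, and replicate 6167, at 842, lay above 3 of them. Brain exceeded aorta 1.81-fold in Notch3 -/- (log2 0.86, limma adjusted p = 0.00448), and the log2 difference of 0.42 in Notch3 +/-, where the arrays did not overlap, did not pass (adjusted p = 0.0562). It did pass there without brain replicate E (0.0421) or I (0.0406), with quantile normalization (0.0256) and with array weights (0.0212). Probe set 1448130_at of the same gene read 46.3, 77.3, 124, 125 and 130.0 in Notch3 -/- brain and 106, 122, 88.7 and 112 in Notch3 +/- brain, against 208, 164 and 231 in Notch3 -/- aorta and 200.2, 252 and 249 in Notch3 +/- aorta. There brain lay below aorta with no overlap in either genotype, with a log2 difference of -0.96 in Notch3 -/- (adjusted p = 0.0061) and -1.02 in Notch3 +/- (adjusted p = 0.000709). The remaining sets, 1438918_at and 1438919_x_at, were dim, at 15.7 to 105 and 18.7 to 66.7 in Notch3 -/- brain, 33.0 to 57.2 and 35.1 to 70.8 in Notch3 +/- brain, 14.7 to 21.8 and 2.15 to 6.38 in Notch3 -/- aorta, and 5.34 to 24.3 and 4.79 to 8.94 in Notch3 +/- aorta. Only 1438918_at in the brain genotype comparison passed the brightness filter.

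Sqle, squalene epoxidase, which adds the first oxygen to squalene and is one of the rate-limiting enzymes of the route, did not pass between the preparations. It read 140.0, 216, 299.6, 288 and 256 in Notch3 -/- brain and 247, 235, 243 and 432 in Notch3 +/- brain, against 174, 174 and 402 in Notch3 -/- aorta and 263, 316 and 265 in Notch3 +/- aorta. The 4 groups overlapped, and brain minus aorta was 0.0079 in Notch3 -/- (95% interval -0.59 to 0.61) and -0.0022 in Notch3 +/- (-0.49 to 0.48) on the log2 scale. The limma adjusted p was 0.982 and 0.994.

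Cyp51, lanosterol 14-alpha-demethylase, the cytochrome P450 of the sterol ring stage, was lower in the brain preparation at 1 of its 3 probe sets. 1422533_at read 35.0, 66.8, 88.0, 113 and 68.3 in Notch3 -/- brain and 70.1, 94.7, 83.6 and 57.8 in Notch3 +/- brain, against 88.4, 116 and 219 in Notch3 -/- aorta and 145, 129.6 and 138 in Notch3 +/- aorta. The tissues did not overlap in Notch3 +/- but did in Notch3 -/-, and brain minus aorta was -0.78 in Notch3 -/- (SE 0.30, limma adjusted p = 0.0369) and -0.75 in Notch3 +/- (SE 0.20, adjusted p = 0.00834). The Notch3 -/- call did not hold without aorta replicate 6167 (log2 -0.44, adjusted p = 0.234), without aorta replicate 5559 (0.0568) or without brain replicate A (0.0715), B (0.0599) or F (0.0589), nor without the filter on low values (0.0734) or with array weights (0.0698). The brightest Cyp51 set, 1450646_at, read 84.6, 54.9, 98.2, 78.6 and 119 in Notch3 -/- brain and 122, 143, 100.4 and 89.5 in Notch3 +/- brain, against 92.2, 119.9 and 269 in Notch3 -/- aorta and 167, 139.6 and 184 in Notch3 +/- aorta. Its differences had the same sign, -0.68 in Notch3 -/- and -0.48 in Notch3 +/-, and did not pass (adjusted p = 0.0534 and 0.0638), except in Notch3 -/- without brain replicate F (0.0362) or aorta replicate 5558 (0.0154), with quantile normalization (0.0334) or in 1 fit over 15 arrays (0.0335), and in Notch3 +/- without brain replicate G (0.036). The third, 1422534_at, ranged from 3.88 to 69.1 in Notch3 -/- brain, 7.38 to 39.6 in Notch3 +/- brain, 4.02 to 25.9 in Notch3 -/- aorta and 5.61 to 24.7 in Notch3 +/- aorta and was not tested.

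Insig1, the brake on SREBP processing, was lower in the brain preparation at its only probe set. It read 206, 269.9, 228, 243 and 274 in Notch3 -/- brain and 263, 278, 147 and 238 in Notch3 +/- brain, against 678, 441 and 901 in Notch3 -/- aorta and 461, 603 and 424 in Notch3 +/- aorta. Every brain array lay below every aorta array. Brain was 2.56-fold lower in Notch3 -/- (log2 -1.36, SE 0.20, limma adjusted p = 4.26e-05) and 2.10-fold lower in Notch3 +/- (log2 -1.07, SE 0.23, adjusted p = 0.00244).

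**Figure D1:**
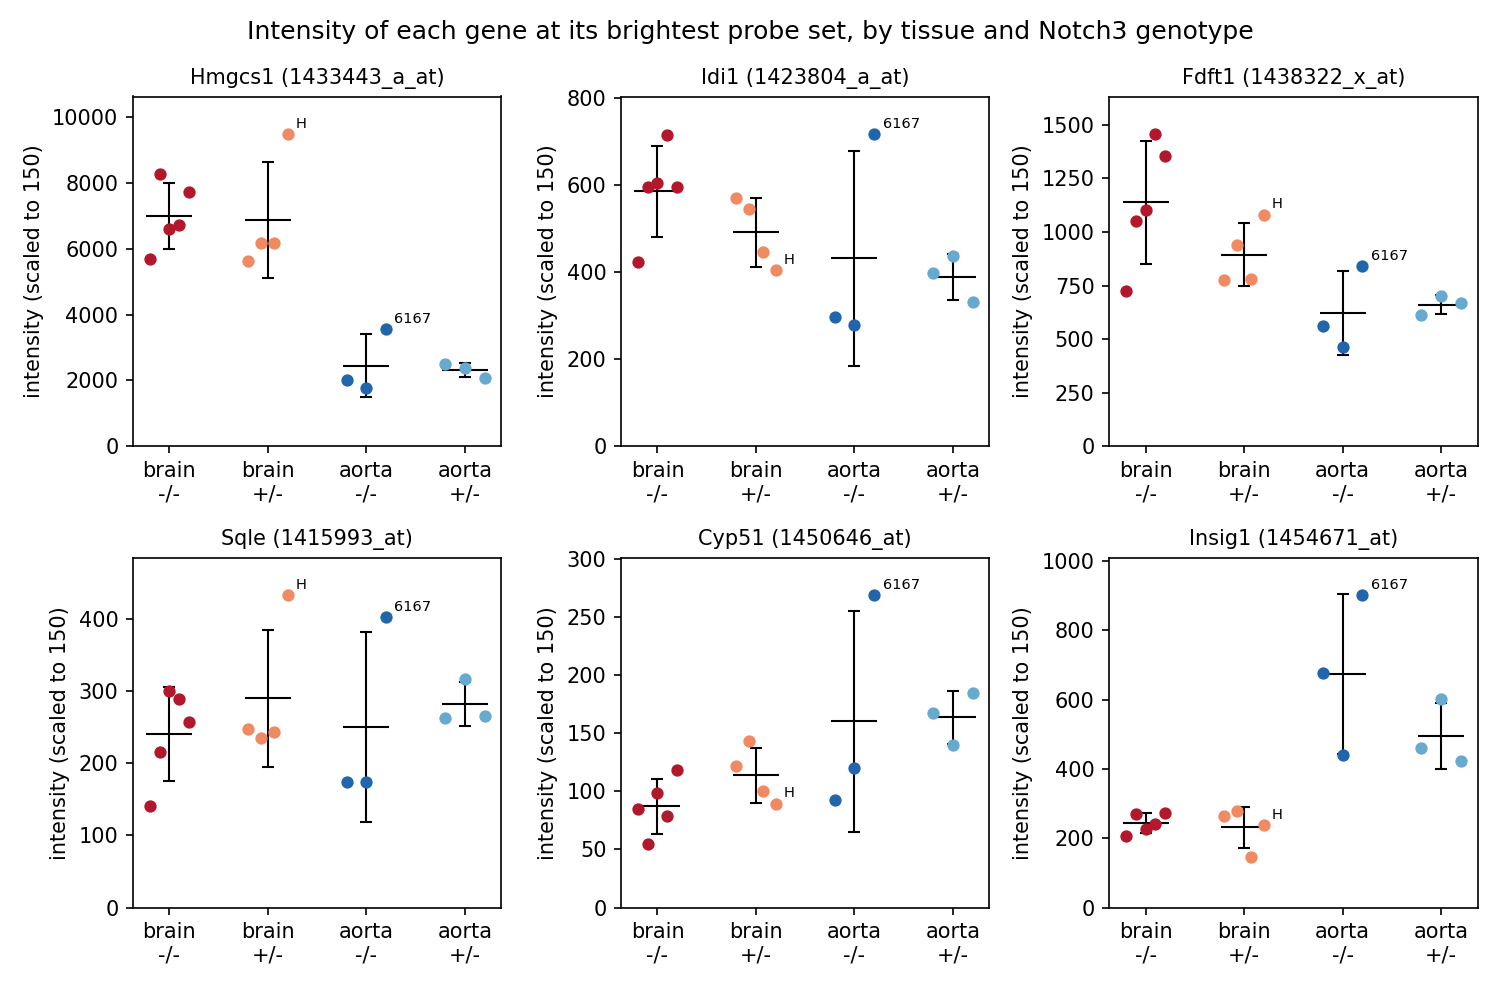
Linear intensity (authors' scaling, target 150) of each gene at its brightest probe set in the 4 groups, each point 1 array and each bar the mean with its SD. Hmgcs1 is high in all brain arrays, Insig1 is high in all aorta arrays, and the aorta Notch3 -/- array 6167 is the top aorta point in all 6 panels.

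Across the tested probe sets of the 6 genes, 2 were higher and 6 lower in brain than in aorta in Notch3 -/-, and 1 was higher and 7 lower in Notch3 +/-, out of 12. Called probe sets made up 62.5% of all 22519 tested in Notch3 -/- (33.6% higher and 28.9% lower in brain) and 51.8% in Notch3 +/- (26.5% higher and 25.2% lower), so the members' share of 66.7% in each is near what the array as a whole showed. The arrays of both tissues did not overlap at 6 of the 12 in Notch3 -/-, against 60% of all probe sets tested, and at 9 of the 12 in Notch3 +/-, against 56.2%. The median log2 difference was -0.73 over the 12 members in Notch3 -/- and -0.77 in Notch3 +/-, beside 0.11 and 0.07 over all probe sets tested. These medians count Hmgcs1 4 times. At 1 probe set per gene, the brightest, the median over the 6 genes had the opposite sign, at 0.27 in Notch3 -/- (2 higher and 1 lower called) and 0.16 in Notch3 +/- (1 higher and 1 lower called). Brightest means the highest mean over all 15 arrays, 9 of them brain, so this choice leans towards sets that are high in brain. In every Notch3 +/- aorta array Idi1 was brighter at 1451122_at, where the sign was the opposite in both genotypes. Neither median thus settles a direction for the 6 genes. Per the labels, only aorta RNA went through Trizol, whereas brain cells were sorted directly into a kit's extraction reagent, so tissue, cell isolation and extraction cannot be told apart.

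**Figure D2:**
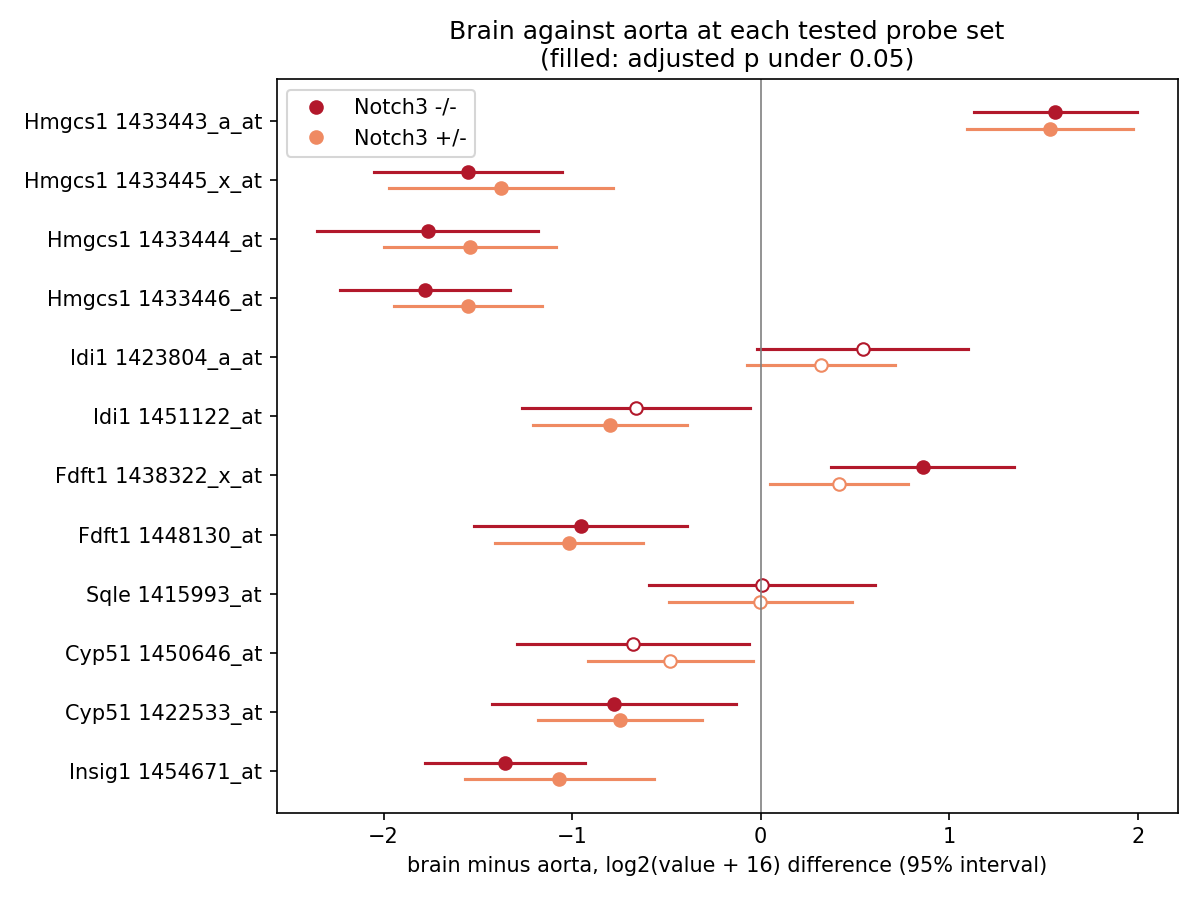
Brain minus aorta on the log2(value + 16) scale with its 95% interval at each of the 12 tested probe sets, Notch3 -/- above Notch3 +/-, with filled points past an adjusted p of 0.05. Hmgcs1, Idi1 and Fdft1 each have their brightest set to the right of 0 and their other sets to the left, while Cyp51 and Insig1 lie to the left throughout.

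No member passed between genotypes in brain cells. By limma 0 of 13 tested probe sets passed, where 0.142% of all probe sets did, and 0 had an unadjusted p under 0.05, against 2115 of all 22519; none of the 13 had arrays that did not overlap, as 3.3% of all probe sets had. Notch3 -/- minus Notch3 +/- was 0.046 for Hmgcs1 (95% interval -0.34 to 0.44), 0.24 for Idi1 (-0.13 to 0.62) and 0.32 for Fdft1 (-0.11 to 0.74) at the brightest probe sets, on the log2 scale. It was -0.25 for Sqle (-0.75 to 0.25), -0.35 for Cyp51 (-0.80 to 0.11) and 0.099 for Insig1 (-0.31 to 0.50). Adjusted p lay between 0.635 and 0.961 over the 13 probe sets. The farthest bound from 0 among these 6 intervals was -0.80, for Cyp51. The 2 genotypes also differed in marker sums. Mural sums were 33949.9 to 40532 in Notch3 -/- and 45119 to 77643 in Notch3 +/- brain, and fibroblast sums 6189 to 9539 and 3254 to 5923. By limma 2 of 9 tested mural markers passed as lower and 0 of 6 fibroblast markers passed. Endothelial, astrocyte and oligodendrocyte sums overlapped. The part of these sums in the member differences was not tested.

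Brain arrays differed among themselves within each genotype. A mean over the 6 genes of the log2 deviation from the brain mean, at the brightest probe sets, ran from -0.36 in Notch3 -/- replicate A to 0.21 in Notch3 -/- replicate F. Replicate A was below the brain mean for all 6 genes and replicate F above it for all 6. In Notch3 +/- brain cells replicate I was lowest (-0.23) and replicate H highest (0.14), with Hmgcs1 at 9479 and Sqle at 432. Replicate H also had the highest summed mural markers of any brain array, 77643, against 33949.9 to 40532 in the Notch3 -/- arrays and at least 45119 in the other Notch3 +/- arrays. Its summed astrocyte and endothelial markers, 32799 and 34029, were the highest of any brain array too. Over all probe sets tested, it was the brightest brain array at 18.0% and the dimmest at 21.5%. Both shares were the largest of any brain array. The part of these traits in its member values was not tested. Without replicate H the genotype difference was 0.21 for Hmgcs1 and -0.053 for Sqle, and no member passed.

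No member passed between genotypes in aorta either, where 1 Notch3 -/- array stood apart from the other 2. The aorta test did not call Notch3 itself. By limma 0 of 12 tested probe sets passed, where 0% of all probe sets did (980 of 22519 had an unadjusted p under 0.05), and 0 of the 12 reached an unadjusted p under 0.05 or had arrays that did not overlap (9.47% of all probe sets). Notch3 -/- minus Notch3 +/- was 0.018 for Hmgcs1, 0.020 for Idi1, -0.13 for Fdft1, -0.26 for Sqle, -0.15 for Cyp51 and 0.39 for Insig1 on the log2 scale, with adjusted p = 0.999 for each. At the brightest probe sets, the mean log2 deviation from the aorta mean over the 6 genes was 0.65 in Notch3 -/- replicate 6167. It was -0.27 in replicate 5558, -0.41 in replicate 5559 and -0.069 to 0.10 in the Notch3 +/- arrays. Insig1 in replicate 5558, at 678, lay above all Notch3 +/- arrays. Replicate 6167 was the brightest of the 6 aorta arrays at 11 of the 12 probe sets, against 18.0% of all probe sets tested. The exception was 1448130_at of Fdft1, at 231 in replicate 6167, which 2 of the Notch3 +/- arrays exceeded. Replicate 5559 was the dimmest at 8 of 12, against 15.9% of all, and replicate 5558 at 3 of 12, against 17.4%. These shares describe the arrays and carry no test.

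Without replicate 6167 the 2 remaining Notch3 -/- arrays lay below all 3 Notch3 +/- arrays for Hmgcs1, Idi1, Fdft1, Sqle and Cyp51 at the brightest probe sets, and at 7 of the 12 tested probe sets in all, against 11% of all probe sets. Dropping an array after its values were seen makes these counts a description only. The log2 difference was then -0.28 for Hmgcs1, -0.40 for Idi1, -0.36 for Fdft1, -0.64 for Sqle and -0.56 for Cyp51. None passed, with limma adjusted p between 0.414 for Sqle and 0.838 for Hmgcs1, and Insig1 stood apart at 0.15. The sign for Hmgcs1 and Idi1 thus turned without this array, and it also turned without Notch3 +/- replicate 6166 (-0.059 for Hmgcs1 and -0.086 for Idi1) and with array weights (-0.056 and -0.076). For Cyp51 it turned without Notch3 -/- replicate 5558 (0.14) and for Fdft1 without Notch3 -/- replicate 5559 (0.054).

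**Figure D3:**
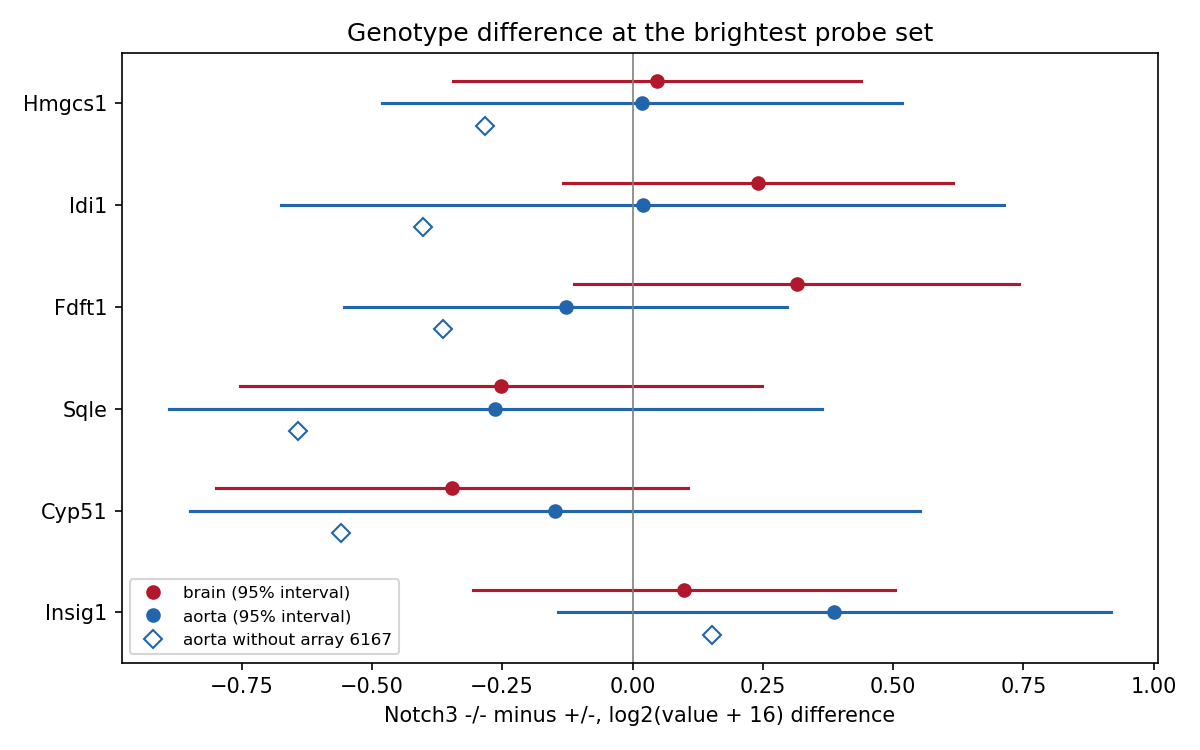
Notch3 -/- minus Notch3 +/- on the log2(value + 16) scale at the brightest probe set of each gene, in brain (red) and aorta (blue) with 95% intervals, and in aorta without array 6167 (open diamonds, no interval drawn). All 12 intervals cross 0, and the diamonds lie to the left of the aorta points for each gene.

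Aorta samples are numbered in the 55xx or the 61xx range, and what the ranges stand for is not stated in the titles. In the 55xx range (2 arrays of each genotype) Notch3 -/- was lower at 11 of 12 member probe sets, with a median log2 difference of -0.36, against 51.5% of all probe sets tested. In the 61xx range (1 array of each genotype, Notch3 -/- replicate 6167 and Notch3 +/- replicate 6166) Notch3 -/- was higher at 11 of 12. The median there was 0.66, and 52.1% of all probe sets were higher. Sqle was -0.68 in the 55xx and 0.57 in the 61xx range, and Idi1 -0.51 and 1.08. The member differences thus had opposite signs in the 2 ranges, and with 1 array of each genotype the 61xx range had no replicates. Its values repeat the high readings of replicate 6167 given above. They are not a second estimate of the genotype difference in aorta. Each range holds as many arrays of one genotype as of the other, so the range as a block cannot move the fitted difference and does not bear on these opposite signs; adjusted p was 0.997 or more with it.

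Several other sterol synthesis genes were also brightest in replicate 6167. Of 13 further enzymes of the route that were measured, replicate 6167 was the brightest array for 8 and the dimmest for none. Over all probe sets tested it was the brightest at 18.0% and the dimmest at 16.4%. Notch3 +/- replicate 5561 was the brightest for 4 of the 13, against 16.9% of all probe sets. Msmo1, the sterol methyl oxidase, read 406, 370.3 and 667 in Notch3 -/- aorta (replicates 5558, 5559 and 6167) and 466, 554 and 411 in Notch3 +/- aorta. Nsdhl, the sterol dehydrogenase of the same step, read 226, 254 and 429 in Notch3 -/- and 283, 305 and 297 in Notch3 +/-, and Hsd17b7, the ketoreductase that completes it, 133, 127 and 226 in Notch3 -/- and 142, 154 and 145 in Notch3 +/-. In all 3, replicate 6167 stood above the other 5 arrays. These 3 enzymes were among the 8 genes whose profile over the 6 aorta arrays was nearest to the mean of the members, out of 11612 genes, with a mean absolute difference of 0.093 log2 for Msmo1, 0.094 for Hsd17b7 and 0.099 for Nsdhl, where the members' mean spanned 1.06. The other 5 were Fst, which encodes follistatin and was the nearest at 0.06, the iron exporter Slc40a1, the glutamine transporter Slc1a5, Glmn and the RNA sensor Ifih1. This search over aorta arrays alone was added after the values of replicate 6167 were seen.

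Fatty acid synthesis, which the related factor SREBP1 serves, was read on a list of 12 genes. The dimmest aorta array was Notch3 -/- replicate 5558 for 4 of them, 5559 for 3 and 6167 for 2, and Notch3 +/- replicate 6166 for 3. The brightest was 6167 for 6 and Notch3 +/- replicate 5561 for 3. Over all probe sets tested, 6167 was the brightest at 18.0% and 5561 at 16.9%. There 5558, 5559, 6167 and 6166 were each the dimmest at 15.9% to 17.4%. Fasn, fatty acid synthase, read 303, 345 and 1230.5 in Notch3 -/- aorta and 1019.9, 1526 and 1381 in Notch3 +/- aorta. Acss2, which makes acetyl-CoA from acetate, read 207, 212 and 672 in Notch3 -/- and 483, 542 and 461 in Notch3 +/-, and the elongase Elovl6 172, 176 and 410.2 in Notch3 -/- and 363, 362 and 318 in Notch3 +/-. Replicates 5558 and 5559 were well below the other 4 arrays in all 3 genes. The 12 genes of this list had a median log2 difference of -0.32 between aorta genotypes, against a median near 0 over all probe sets, with 10 of them below 0, and 0 passed by limma. Acaca, acetyl-CoA carboxylase, was among 3 of the list, with Fads2 and Me1, whose Notch3 -/- arrays all lay below the Notch3 +/- arrays (424, 452 and 625 in Notch3 -/-, 773, 714 and 802 in Notch3 +/-; log2 -0.61, adjusted p = 0.744). Over all probe sets tested, the arrays of the aorta genotypes did not overlap, in either direction, at 9.47%. Fasn, Acss2, Elovl6, Acaca and Fads2 are named after their values were seen. Markers of adipocytes, which make much fatty acid and surround the aorta, moved in part with this: 5 of 7 listed were measured, their sum was 3817, 3676 and 6334 in Notch3 -/- aorta (5558, 5559 and 6167) and 7086, 4056 and 7120.0 in Notch3 +/- aorta (5556, 5561 and 6166), and Lep averaged under 50 in Notch3 -/-. Replicate 5561 had a low adipocyte sum beside member values above the aorta mean for 5 of 6 genes. The part of adipocyte RNA in these values was not tested.

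**Figure D4:**
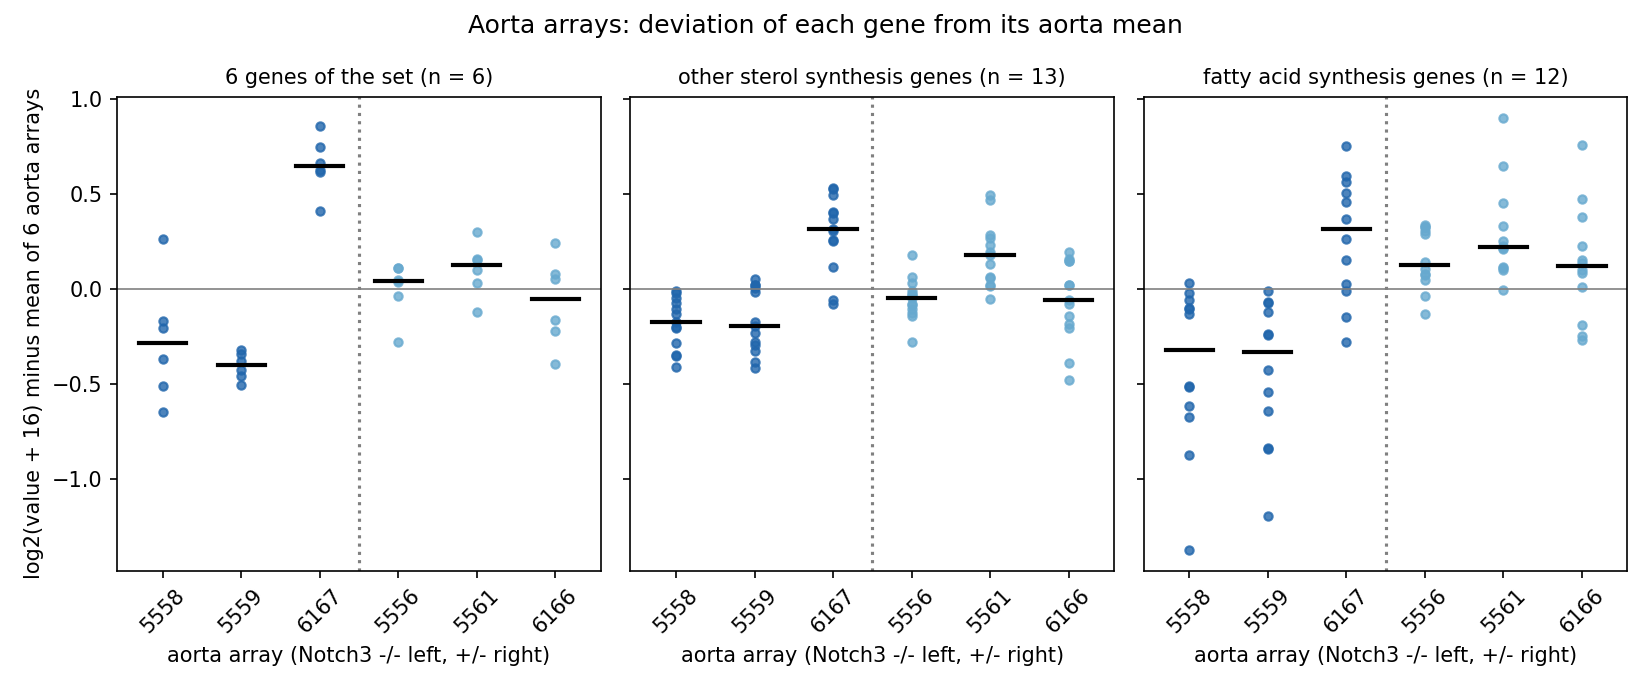
Deviation of each gene from its mean over the 6 aorta arrays, log2(value + 16), for the 6 genes, 13 other sterol synthesis genes and 12 fatty acid synthesis genes at the brightest probe set, with black bars at the median. Notch3 -/- arrays 5558 and 5559 have medians below 0 in all 3 panels, and array 6167 has the highest median in each.

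Between the preparations the rest of the sterol route was mixed. Each gene here was read at its brightest probe set alone. Whether other sets of the same gene have the same sign was not tested, and for Hmgcs1, Idi1 and Fdft1 they did not. Of the 13 further synthesis enzymes, 6 were higher and 2 lower in brain in Notch3 -/-, and 3 higher and 2 lower in Notch3 +/-. Over all probe sets tested, 33.6% were called higher and 28.9% lower in Notch3 -/-, and 26.5% and 25.2% in Notch3 +/-. The counts per list here are to be read beside these shares. Dhcr7, the reductase of the last step, was higher in brain (434 ± 129 in Notch3 -/- brain and 441 ± 146 in Notch3 +/- brain, against 138 ± 40.6 in Notch3 -/- aorta and 161 ± 52.2 in Notch3 +/- aorta; SD, n = 5, 4, 3 and 3), as was the lanosterol synthase Lss (log2 1.02 in Notch3 -/- and 0.81 in Notch3 +/-). Fdps, which makes farnesyl diphosphate, was lower in brain (log2 -1.73 in Notch3 -/- and -1.65 in Notch3 +/-), as was Msmo1 (-1.28 and -1.06); limma adjusted p was at most 0.0124 over these 4 genes. Of the regulators, Srebf2, which encodes SREBP2, was lower in brain (68.1 ± 19.8 in Notch3 -/- and 91.2 ± 28.0 in Notch3 +/-, against 133 ± 15.7 and 143 ± 19.4 in aorta, adjusted p = 0.00192 and 0.0451), while Srebf1 and Scap were higher (log2 0.81 and 0.86 in Notch3 -/-, 0.99 and 0.72 in Notch3 +/-). The protease Mbtps1 (-1.19 and -0.98) and Insig2 (-0.55 and -0.83), the paralog of Insig1, were lower in brain, Notch3 -/- given first. Over the 7 measured regulators, 2 were higher and 4 lower in brain in Notch3 -/-, and 2 higher and 3 lower in Notch3 +/-. Among 5 isoprenoid branch genes 1 was higher and 1 lower in Notch3 -/-, and 2 higher and 1 lower in Notch3 +/-.

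None of the pathway genes passed between genotypes in either tissue by limma. In brain cells the smallest adjusted p on the lists were 0.291 for Dhdds, a dolichol synthesis gene (log2 -0.64), 0.309 for Mylip, a ubiquitin ligase induced by sterols (0.56), and 0.347 for Hsd17b7 (0.61). Srebf2 was at -0.34 (0.651), Apoe at -0.63 (0.415) and the cholesterol 25-hydroxylase Ch25h at 0.90 (0.44). Hsd17b7 averaged 293 ± 76.1 in Notch3 -/- (n = 5) and 181 ± 8.62 in Notch3 +/- brain cells (n = 4), with 4 of the 5 Notch3 -/- arrays above every Notch3 +/- array and replicate A, at 172, at their low end. The difference between the genotype effects in brain and in aorta, fitted over all 15 arrays, passed for 0 of 12 member probe sets by limma (0 at an unadjusted p under 0.05, against 1071 of all 22519), where 0.0178% of all probe sets passed. It ranged from -0.29 for Insig1 to 0.44 for 1438322_x_at of Fdft1 on the log2 scale, with adjusted p of at least 0.997.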

How the data were processed

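RNA was hybridised to 15 Affymetrix mouse 430 2.0 arrays. The deposited values are linear intensity per probe set, which the authors scaled to 150 (stated in the design text for brain arrays), and a trimmed mean of 150 was found on every array. How probes were summarised is not stated in the labels. Arrays of 1 group correlated at r between 0.932 and 0.981. Each array was counted as 1 replicate, which these correlations do not establish, and for aorta the labels do not state 1 mouse per array.

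A single gene symbol was annotated to 34958 of 45101 probe sets, several to 932 and none to 9211, and 34754 were matched to RefSeq (GRCm38.p6) by Entrez identifier. With 64 control probe sets left out, log2(value + 16) was tested at probe sets at or above the median mean of the arrays in a fit (22519 in each) with limma 3.58.1 in R 4.3.3 (two-sided, intensity trend, Benjamini-Hochberg at 5%), checked on simulated data. Alternatives were other pseudocounts, no filter, quantile normalization, no trend, array weights, 1 fit over all arrays, the aorta number range as a block and leaving out each array.

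The members and lists were chosen with earlier results of these data known. Named genes were the members, per list up to 4 genes with the smallest p between tissues in Notch3 +/- and up to 2 between genotypes in brain, Srebf1, Srebf2 and the 8 genes nearest in profile. Genes were read at their brightest probe set. Some further genes of the lists were not analysed here.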

Additional observations from a re-analysis of the deposited data

Results flagged for a closer look

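In Notch3 +/- brain cells 1 array, replicate H, lay far from the other 3 for 2 of the 6 genes. Hmgcs1 at 1433443_a_at read 9479 in replicate H, against 5636 to 6178 in the others, and Sqle read 432, against 235 to 247. The gap to the nearest array was 0.859 and 0.938 of the group's whole range, above Dixon's critical value for 4 arrays. Of 32 groups of brain arrays examined on linear values over the 16 probe sets these 2 were picked out. Chance picks out about 1 in 20, so 2 of 32 is near the rate of chance. Other probe sets of Hmgcs1 did not show it: replicate H was the lowest Notch3 +/- array at 1433445_x_at (181) and 1433444_at (158). Over all probe sets tested, replicate H was the brightest brain array at 18.0% and the dimmest at 21.5%, each the largest such share. Its distance from the other arrays is thus not particular to these genes. Groups of 3 aorta arrays are too small for this comparison.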

How the results depend on the processing

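No member probe set passed between genotypes in brain, in aorta or in the difference of both under any alternative run, with lowest adjusted p of 0.455, 0.414 and 0.65. Between tissues 8 of 12 passed in each genotype, and 7 to 9 with 1 array left out in Notch3 -/- and 8 to 9 in Notch3 +/-; the other settings gave 7 to 10 and 8 to 10. Over all probe sets the brain count of 32 became 50 with a pseudocount of 64, 18 without the filter, 52 with array weights, 137 with 1 fit over 15 arrays and 10 to 38 with 1 array left out (15 without replicate G, 10 without H, 21 without C and 14 without D). The aorta count of 0 became 2 in the fit over 15 arrays and 0 to 7 with 1 array left out (7 without 5556, 1 without 5559 and 7 without 6167), and the count of 4 for the difference became 13 with array weights and 0 to 7 with 1 array left out (7 without 5556, 1 without 5561, 0 without 6166 and 1 without 5558). Signs of small, uncalled differences turned. With array weights these were brain -0.013 (Fdft1 1438918_at), aorta -0.056, -0.018 and -0.022 (Hmgcs1 1433443_a_at, 1433445_x_at and 1433444_at) and -0.076 (Idi1 1423804_a_at), and 0.070 in the difference for Cyp51 1422533_at. Sqle turned in Notch3 +/- between tissues (0.0022 with a pseudocount of 64, 0.056 with quantile normalization) and in the difference (-0.0017 and -0.0092). With 1 array left out, the aorta genotype differences that crossed 0 were Cyp51 1422533_at (-0.39 to 0.20), Cyp51 1450646_at (-0.56 to 0.14), Fdft1 1438322_x_at (-0.36 to 0.054), Hmgcs1 1433443_a_at (-0.28 to 0.21), Hmgcs1 1433444_at (-0.23 to 0.27), Hmgcs1 1433445_x_at (-0.23 to 0.25), Hmgcs1 1433446_at (-0.12 to 0.15), Idi1 1423804_a_at (-0.40 to 0.25) and Idi1 1451122_at (-0.50 to 0.23). In brain these were Cyp51 1422533_at (-0.23 to 0.11), Fdft1 1448130_at (-0.25 to 0.059), Hmgcs1 1433443_a_at (-0.038 to 0.21), Hmgcs1 1433445_x_at (-0.38 to 0.020), Idi1 1451122_at (-0.063 to 0.17) and Insig1 1454671_at (-0.090 to 0.19). In the difference of both they were Cyp51 1422533_at (-0.28 to 0.30), Cyp51 1450646_at (-0.49 to 0.21), Fdft1 1448130_at (-0.068 to 0.27), Hmgcs1 1433443_a_at (-0.17 to 0.33), Hmgcs1 1433444_at (-0.46 to 0.043), Hmgcs1 1433445_x_at (-0.43 to 0.11), Idi1 1423804_a_at (-0.013 to 0.64), Idi1 1451122_at (-0.17 to 0.55) and Sqle 1415993_at (-0.18 to 0.39). Between tissues Sqle crossed 0 in Notch3 -/- (-0.18 to 0.39) and in Notch3 +/- (-0.20 to 0.081). The cause was not tested. No paired analysis was possible because the groups share no replicate names. Dim values limit the 4 probe sets that were tested in at most 1 comparison.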

Other observations

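Genes of sterol uptake and disposal also differed between the preparations, each read at its brightest probe set alone. Whether other sets of the same gene have the same sign was not tested. Of 11 measured uptake and transport genes, 6 were higher and 4 lower in brain in Notch3 -/-, and 6 higher and 3 lower in Notch3 +/-. Over all probe sets tested, 33.6% were called higher and 28.9% lower in Notch3 -/-, and 26.5% and 25.2% in Notch3 +/-. A count of called genes on these lists is thus in part what the whole array showed. Scarb1, the HDL receptor, averaged 3085 ± 559 in Notch3 -/- brain and 3234 ± 1255 in Notch3 +/- brain, against 113 ± 12.1 in Notch3 -/- aorta and 171 ± 34.9 in Notch3 +/- aorta (log2 4.58 in Notch3 -/- and 4.05 in Notch3 +/-). The apolipoprotein E receptor Lrp8 (log2 3.48 and 3.38) and the lysosomal sterol carrier Npc2 (1.29 and 1.23) were higher too, whereas the scavenging receptor Lrp1 was lower (-1.83 and -1.66), Notch3 -/- first. Among 10 measured genes of efflux, storage and oxidation 6 were higher and 0 lower in brain in each genotype, among them the hydroxylases Cyp7b1 (3.97 and 3.66) and Cyp46a1 (2.39 and 2.11), the exporter Abcg1 (1.58 and 1.97) and Apoe, the carrier secreted by astrocytes (1.57 and 2.18). Limma adjusted p was at most 0.000133 over these 8 genes. The astrocyte and oligodendrocyte marker sums differ between the tissues in the same direction as the genes that were higher in brain, and their part was not tested. Of 7 measured endothelial markers 6 were likewise higher in brain and 1 lower in each genotype, with summed intensities of 23526 to 29142 in Notch3 -/- brain and 19492 to 34029 in Notch3 +/- brain, against 1454 to 1675 in Notch3 -/- aorta and 1516 to 1629.9 in Notch3 +/- aorta. All 6 fibroblast markers were lower in brain in both genotypes, with sums of 6189 to 9539 in Notch3 -/- brain and 3254 to 5923 in Notch3 +/- brain, against 30642 to 33310.0 in Notch3 -/- aorta and 30276 to 32605 in Notch3 +/- aorta.

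Over all 15 arrays the genes whose profile was nearest to the mean of the 6 members, among 11974 genes, were Eif2d, Mrps2, Hacl1, Pus1, Hibadh, Sdhb, Ppp2ca and Nsd3, with a mean absolute difference of 0.15 to 0.17 on the log2 scale. None of these 8 is on a sterol or lipid list used here. The members' mean spanned 1.06 over the arrays and these genes 0.45 to 0.79, so they are flatter than the members. In Notch3 -/- brain cells replicate A was the dimmest of the 9 brain arrays at 6 of 13 tested member probe sets, against 8.97% of all probe sets, and replicate D the brightest at 5 of 13, against 9.75%.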
